A study of Saccharomyces cerevisiae with 6 samples.

Results

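Sterol synthesis, storage and transport in budding yeast was followed through 34 genes, listed by their known role: 9 of the mevalonate part, 16 of the part that leads through squalene to ergosterol, 5 that make or hydrolyse sterol esters, 2 sterol transfer proteins and 2 transcription regulators. A probe annotated with the gene's symbol existed for 33 of them, among 5379 genes named on the array, and HMG2 was not analysed here. The treated culture was Saccharomyces cerevisiae S288C, taken in exponential growth in rich glucose medium at 25 °C and held in 1.8 mM formaldehyde for 2 h. Its control was the same strain grown for those 2 h with nothing added. Poly(A) RNA of the formaldehyde culture (Cy5) and of the control culture (Cy3) shared a 2-colour array, and each of 3 arrays, from separate biological samples, gave a scan at high laser power and another at low power. S288C is the reference laboratory strain, and it carries a transposon insertion in HAP1, whose product is a regulator of sterol and heme genes, so both cultures lack full Hap1 function.

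Ergosterol is the sterol of fungal membranes and fills the place that cholesterol has in animal cells. Its synthesis starts from acetyl-CoA, passes through mevalonate to the isoprenoid farnesyl diphosphate, and continues from squalene over lanosterol to ergosterol in steps of which several consume molecular oxygen and some need heme. Surplus sterol is esterified with fatty acids and stored in lipid droplets, and the regulators Upc2 and Ecm22 activate many ERG genes when sterol runs low.

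Values are log2 ratios of formaldehyde over control on 1 array, averaged over its high and low power scans where both were read. That direction is likely rather than settled, because the labels place the treated sample in the first channel without stating which channel is the numerator. A turned ratio would exchange every rise and fall. All arrays had formaldehyde in Cy5, so a dye effect of a gene and the treatment cannot be told apart. A gene was tested when it had a value on all 3 arrays, with limma across 2133 such genes, and was called at a Benjamini-Hochberg adjusted p under 0.05. The median log2 ratio of those genes was 0.18, which sets the level against which small changes should be read. Errors are SDs over the 3 arrays.

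The genes of sterol synthesis were mostly lower in formaldehyde, while the main sterol esterification gene was much higher. Of the 20 sterol genes with a value on all 3 arrays, 15 fell and 2 rose, and 3 did not pass. Over all genes tested, 25.3% were called lower and 37.2% higher. An adjusted p under 0.05 together with an observed fall of at least 2-fold was found for 11 of the 20, against 15.7% of all genes tested, and with an observed rise of at least 2-fold for 1, ARE2, against 22.0% of all genes tested. When the change itself was tested against a minimum fold of 2 with limma, 5 sterol genes were called lower, among 192 of all genes, and 1 higher, among 218. The median log2 ratio of the 20 was -1.13. In a bulk culture these ratios do not separate a change in every cell from a change in some of the cells. Of the other sterol genes with a probe, 7 were read on 2 arrays, ERG3 and ERG7 on array 3 alone, and CYB5, YEH1, HES1 and UPC2 on none. Values on all 3 arrays existed for 60.6% of the sterol genes with a probe, against 39.7% of all named genes.

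**Figure D1:**
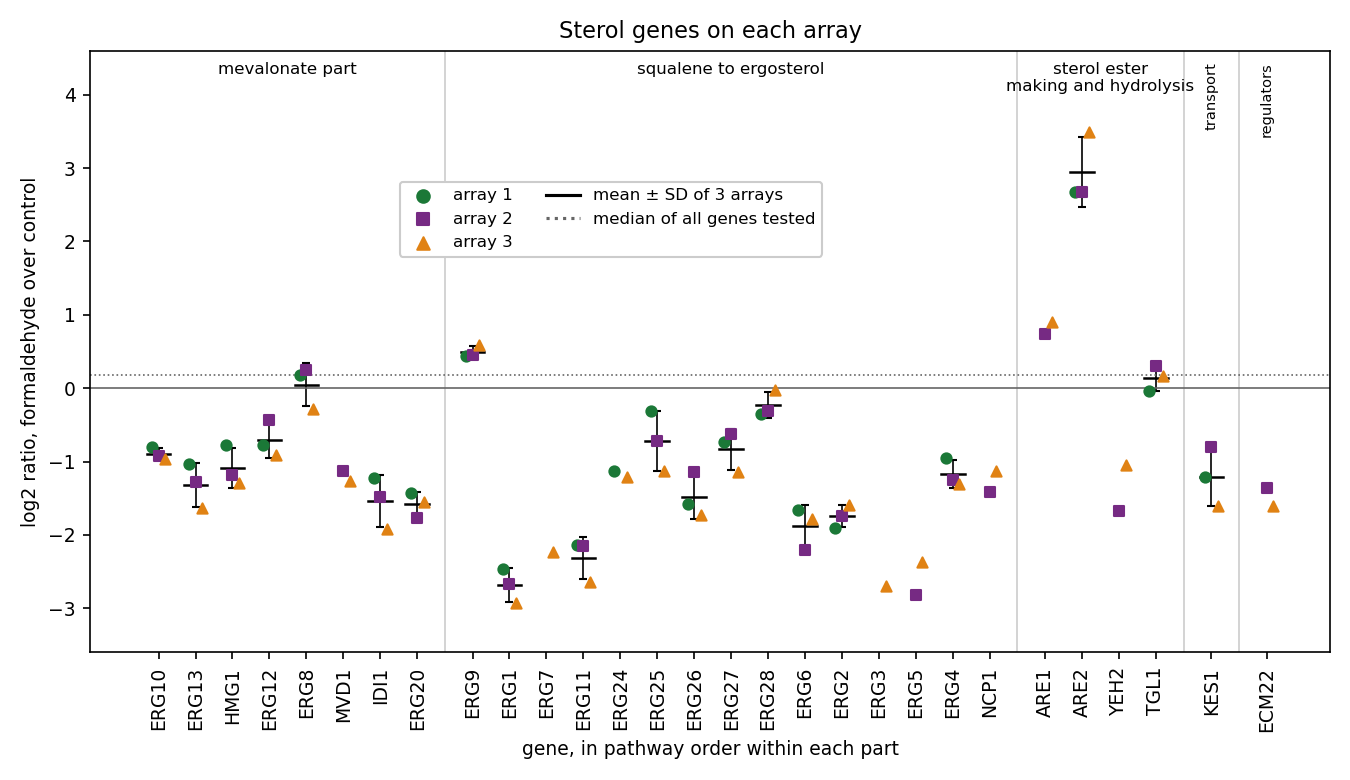
Log2 ratio of formaldehyde over control (y axis) for the 29 sterol genes with a value, in pathway order within each part (x axis); symbols are arrays, black bars the mean ± SD where 3 arrays had a value, and the dotted line is the median of all genes tested, 0.18. Most synthesis genes sit between -0.5 and -3, with ERG8, ERG9 and ERG28 near or above 0, and ARE2 stands alone near 3.

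In the mevalonate part the tested genes were lower from the first step to the last, with 1 exception in the middle. Of its 7 tested genes 6 fell and ERG8 did not pass, and their median log2 ratio was -1.08, with medians of -0.80, -1.19 and -1.29 on arrays 1, 2 and 3. ERG10 (YPL028W), the acetoacetyl-CoA thiolase that opens the pathway, had log2 ratios of -0.80, -0.92 and -0.97. ERG13 (YML126C), HMG-CoA synthase, had -1.04, -1.28 and -1.64, and HMG1 (YML075C), one of 2 isoforms of the rate-limiting HMG-CoA reductase, had -0.77, -1.19 and -1.29. All 3 genes were below 0 on every array, and ERG10 had the smallest spread of the part. Their means were -0.90 ± 0.09, -1.32 ± 0.30 and -1.08 ± 0.27 (limma adjusted p = 0.00248, 0.000785 and 0.00173).

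The kinases that follow had the mean ratios nearest to 0 among the mevalonate genes tested. ERG12 (YMR208W), mevalonate kinase, had log2 ratios of -0.78, -0.44 and -0.92 on arrays 1, 2 and 3, a mean of -0.71 ± 0.24 (limma adjusted p = 0.0107). Without array 3 its mean was -0.61 and the call was lost (limma adjusted p = 0.0664), and over the alternatives other than a minimum fold its adjusted p lay between 0.00436 and 0.0664. ERG8 (YMR220W), phosphomevalonate kinase, had 0.18, 0.25 and -0.28. Its arrays fell on both sides of 0, and the 95% interval of its mean of 0.05 ran from -0.38 to 0.48 (limma adjusted p = 0.838). On every array ERG8 exceeded its neighbour ERG12, by 0.96, 0.69 and 0.63.

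The last steps before squalene had the largest falls among the mevalonate genes tested. IDI1 (YPL117C), the isomerase of isopentenyl diphosphate, had log2 ratios of -1.22, -1.48 and -1.92, and ERG20 (YJL167W), which makes farnesyl diphosphate, had -1.43, -1.77 and -1.55. Both stayed below -1 on every array. IDI1 fell by 1.54 ± 0.36 on the log2 scale, a 2.91-fold decrease (limma adjusted p = 0.000481), and ERG20 fell by 1.58 ± 0.17, a 2.99-fold decrease (limma adjusted p = 0.000211). No low power scan gave a value for IDI1. With high power scans alone IDI1 (-1.54) and ERG20 (-1.67) were still the lowest of the mevalonate genes tested. MVD1 (YNR043W), mevalonate diphosphate decarboxylase, was read on arrays 2 and 3 only, at -1.13 and -1.27.

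Squalene synthase did not follow its neighbours on either side. ERG9 (YHR190W), which joins 2 farnesyl diphosphates into squalene, had log2 ratios of 0.44, 0.45 and 0.58. All arrays were above 0 and close together, and the mean of 0.49 ± 0.08 passed the test (limma adjusted p = 0.0317). The call held in 5 of 13 alternatives other than a minimum fold, 1 of which, the single probe, could not alter its ratio. It was lost when any 1 array was left out (means of 0.45 to 0.52, limma adjusted p = 0.104 to 0.170), with high power scans alone (0.49, adjusted p = 0.0530) and when arrays were centred on the genes tested (0.30, adjusted p = 0.132). Its adjusted p over the alternatives other than a minimum fold ran between 0.00960 and 0.170. The gap to the adjoining steps was larger: ERG9 exceeded ERG20 by 1.87, 2.22 and 2.13 on arrays 1, 2 and 3, a mean of 2.07 ± 0.18, and exceeded ERG1 by 2.90, 3.12 and 3.51.

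From squalene onward the ratios reached their lowest values. Of 10 tested genes between squalene synthase and ergosterol 8 fell, ERG9 rose and ERG28 did not pass, with a median of -1.33 and array medians of -1.27, -1.19 and -1.45. The squalene-to-ergosterol median lay below that of the mevalonate part by 0.47 on array 1, 0.01 on array 2 and 0.16 on array 3. With a mean difference of -0.21 ± 0.24, the gap between the 2 parts was no larger than its spread over the arrays. With low power scans alone the order was turned round, with a median of -0.93 over 6 squalene-to-ergosterol genes and -1.34 over 3 mevalonate genes. Those scans left out ERG11, ERG6, ERG2 and ERG28 of the first part and HMG1, ERG12, ERG8 and IDI1 of the second. The genes that remained already stood in that order with both scans averaged. There the middle values of the 6 were ERG27 (-0.84) and ERG4 (-1.17), above the middle value of the 3, ERG13 (-1.32).

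ERG1 (YGR175C), the squalene epoxidase, had log2 ratios of -2.46, -2.67 and -2.93, and ERG11 (YHR007C), the cytochrome P450 that demethylates lanosterol and is the target of azole antifungals, had -2.13, -2.16 and -2.64. These were the lowest and second lowest means of the tested sterol genes, and rank 94 and 122 from the bottom of the 2133 genes. ERG1 fell by 2.69 ± 0.23, a 6.44-fold decrease (limma adjusted p = 2.38e-05), and ERG11 fell by 2.31 ± 0.29, a 4.96-fold decrease (limma adjusted p = 5.53e-05). ERG7 (YHR072W), lanosterol synthase, stands between them in the pathway and had a value on array 3 alone, -2.23. ERG24 (YNL280C), the sterol reductase that acts after Erg11, was read on arrays 1 and 3, at -1.14 and -1.21.

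The demethylation complex that follows was lowered unevenly. ERG26 (YGL001C), its dehydrogenase, had log2 ratios of -1.58, -1.14 and -1.73, ERG27 (YLR100W), its ketoreductase, -0.74, -0.62 and -1.15, and ERG25 (YGR060W), its oxidase, -0.31, -0.72 and -1.12. ERG26 fell by 1.48 ± 0.30 (limma adjusted p = 0.000461) and ERG27 fell by 0.84 ± 0.28 (limma adjusted p = 0.00590). ERG25 fell by 0.72 ± 0.41 (limma adjusted p = 0.0186) and had the widest spread of the tested synthesis genes. Dropping array 2 (-0.72, adjusted p = 0.0504) or array 3 (-0.51, adjusted p = 0.107) ended its call, and its adjusted p over the alternatives other than a minimum fold lay between 0.000498 and 0.107. ERG28 (YER044C), the scaffold that holds these enzymes together, had -0.35, -0.31 and -0.02, and the 95% interval of its mean of -0.22 ran from -0.62 to 0.17 (limma adjusted p = 0.280).

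Late steps that shape the ergosterol ring and side chain were lower as well. ERG6 (YML008C), the sterol methyltransferase, had log2 ratios of -1.66, -2.21 and -1.79, ERG2 (YMR202W), the sterol isomerase, -1.90, -1.74 and -1.60, and ERG4 (YGL012W), the final reductase, -0.96, -1.25 and -1.31. ERG6 fell by 1.88 ± 0.29 (3.69-fold, limma adjusted p = 0.000137), ERG2 fell by 1.75 ± 0.15 (3.35-fold, adjusted p = 0.000124) and ERG4 fell by 1.17 ± 0.19 (2.25-fold, adjusted p = 0.000909). ERG6 and ERG2 overlapped in their array values, whereas ERG4 lay above both on every array. ERG5 (YMR015C), the cytochrome P450 desaturase, was read at -2.83 and -2.37 on arrays 2 and 3, and ERG3 (YLR056W), the other desaturase, at -2.69 on array 3. NCP1 (YHR042W), the reductase that passes electrons to Erg11 and Erg5, had -1.42 and -1.13 on arrays 2 and 3.

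**Figure D2:**
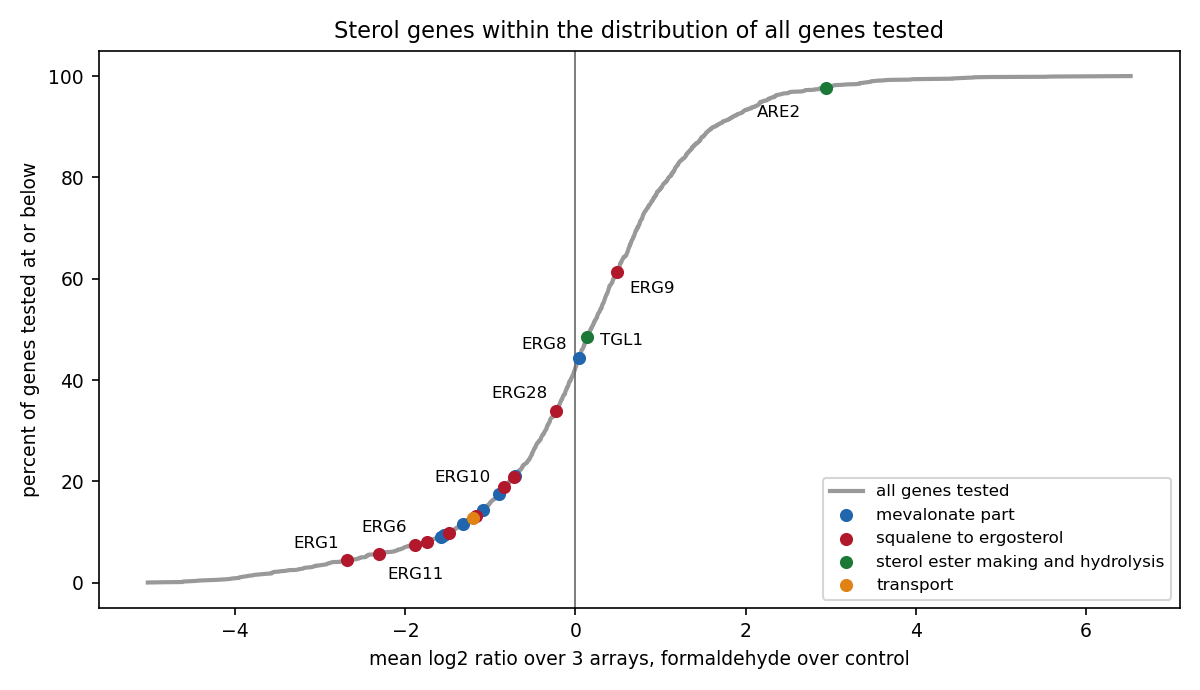
Mean log2 ratio over 3 arrays (x axis) against the percent of the 2133 tested genes at or below it (y axis); the grey line is all genes tested and the points are the 20 tested sterol genes, coloured by part. The 15 genes that fell lie on the lower left of the curve, ERG28, ERG8 and TGL1 in its middle, ERG9 somewhat above, and ARE2 near its upper end, rank 50 from the top.

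Genes of sterol ester metabolism did not move one way. ARE2 (YNR019W), the acyl-CoA:sterol acyltransferase that makes most sterol ester in aerobic cells, had log2 ratios of 2.67, 2.67 and 3.50 on arrays 1, 2 and 3. No other sterol gene reached 1 on any array. ARE2 rose by 2.95 ± 0.48, a 7.72-fold increase (limma adjusted p = 4.22e-05), and kept its call in all 13 alternatives that gave it a value, at log2 ratios between 2.67 and 3.09. These values came from high power scans alone, since no low power scan gave a value for ARE2.

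Its isoform ARE1 (YCR048W) had 0.74 and 0.91 on arrays 2 and 3, lower than ARE2 by 1.94 and 2.59 on the same arrays. The isoforms are similar in sequence, and cross-hybridisation between them was not tested. Among the hydrolases, TGL1 (YKL140W), a lipid droplet sterol esterase, had -0.04, 0.30 and 0.16, on both sides of 0, with a 95% interval of its mean of 0.14 from -0.26 to 0.53 (limma adjusted p = 0.496). YEH2 (YLR020C), the esterase of the plasma membrane, had -1.67 and -1.05 on arrays 2 and 3. ARE2 exceeded TGL1 by 2.72, 2.37 and 3.34 on the 3 arrays.

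For transport and regulation 2 genes carried values. KES1 (YPL145C), an oxysterol-binding protein that exchanges sterol for phosphoinositide between membranes, had log2 ratios of -1.22, -0.81 and -1.60. All were below 0, and KES1 fell by 1.21 ± 0.40, a 2.31-fold decrease (limma adjusted p = 0.00176). ECM22 (YLR228C), the activator of ERG genes related to Upc2, had -1.37 and -1.61 on arrays 2 and 3. UPC2 and HES1, a relative of KES1, had no value on any array.

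The 7 genes read on 2 arrays were tested in a second limma fit over the 3307 genes with a value on at least 2 arrays, in which 24.7% of genes were called lower and 30.3% higher. Of the 27 sterol genes in that fit 21 fell and 2 rose. The 6 added falls were those of ERG5 (mean -2.60, adjusted p = 1.38e-05), ECM22 (adjusted p = 0.000746), YEH2 (adjusted p = 0.00190), NCP1 (adjusted p = 0.00211), MVD1 (adjusted p = 0.00294) and ERG24 (adjusted p = 0.00328). ARE1 rose, with a mean of 0.82 or 1.77-fold (adjusted p = 0.0224), and ERG9 no longer passed (adjusted p = 0.0632). With 2 arrays a gene has 1 residual degree of freedom, so these p-values lean on the variance pooled over genes.

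Array 3, which read most genes, gave a value for all 29 sterol genes that had one anywhere, and so shows them without the need for a value on all 3 arrays. On it 25 of the 29 were below 0, with a median of -1.29, against a median of 0.13 over the 4292 genes read there. A log2 ratio of -1 or lower was found for 13 of 15 genes of the squalene-to-ergosterol part and for 5 of 8 of the mevalonate part, against 18.9% of all genes. Array 3 also held the lowest of the 3 values for 13 of the 20 tested sterol genes, or 65.0%, compared with 25.7% of all genes tested. All genes tested include many that rose. Among the tested sphingolipid genes described below, which also mostly fell, the share was 57.1%, or 8 of 14. The array medians of the 17 tested synthesis genes were -0.96, -1.19 and -1.31 on arrays 1, 2 and 3, while those of all genes tested were 0.05, 0.21 and 0.31.

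Ratios of the sterol genes were more often higher in the low power scan than in the high power scan. In 47 cases a sterol gene was read in both scans of an array, and in 34 of them the low power ratio was the higher one. The median difference, low minus high, was 0.13, 0.24 and 0.32 on arrays 1, 2 and 3 for the sterol genes. For all genes read in both scans it was 0.01, 0.11 and 0.15. Those genes include many that rose, so this contrast does not compare genes of like direction. Whether falling genes outside the sterol set differ between scans in the same way was not tested. The largest difference was that of ERG2 on array 2, 1.17, followed by ERG12 on array 1, 0.75. With high power scans alone the median of the squalene-to-ergosterol part was -1.47 over 10 genes. With low power scans alone it was -0.93, over 6 of them. The low power set lacked ERG11, ERG2, ERG6 and ERG28, so the gap between these medians is not a scan difference of the same genes. The part of the scan setting in the size of the falls was not tested further.

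**Figure D3:**
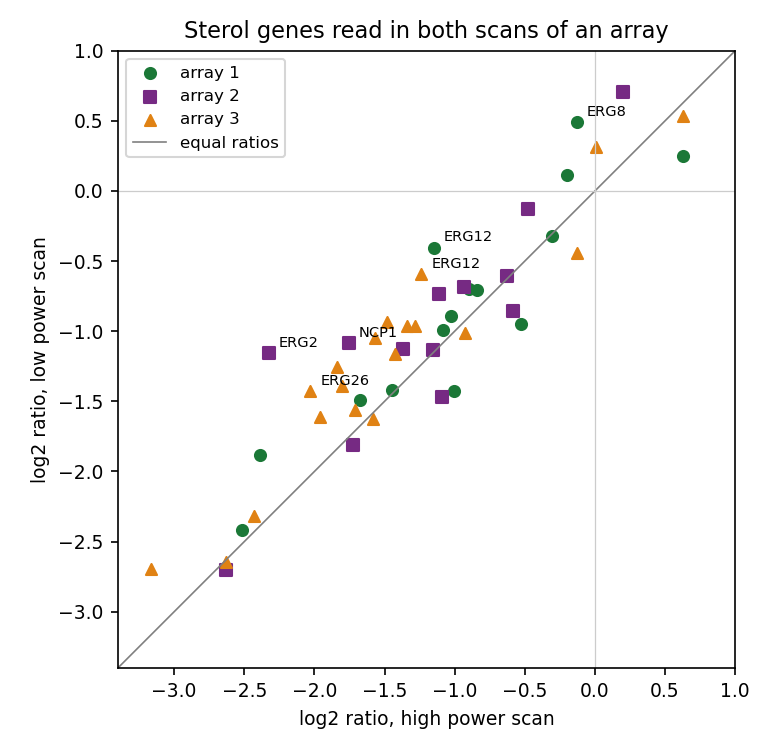
Log2 ratio of formaldehyde over control in the low power scan (y axis) against the high power scan (x axis) for sterol genes read in both scans of an array, 47 points from 3 arrays; the line marks equal ratios. Of the 47 points 34 lie above the line, and labelled genes differ by more than 0.6.

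Genes that border on the pathway were taken from 7 lists, and each count can be read against the same 25.3% called lower and 37.2% called higher. Of 5 tested genes on isoprenoid branches that share farnesyl or isopentenyl diphosphate with sterols, 2 fell and 1 rose (median 0.01). COX10, which farnesylates heme, fell by 0.88 ± 0.17 (limma adjusted p = 0.00331). The remaining calls did not hold in every fit with 1 array left out, although RAM2 was below 0 and NUS1 above 0 on every array. RAM2, a prenyltransferase subunit, fell by 0.63 ± 0.42. It missed the threshold without array 1 (-0.39, limma adjusted p = 0.231) or array 3 (-0.76, limma adjusted p = 0.0642). NUS1, of dolichol synthesis, rose by 0.70 ± 0.36. It missed the threshold without array 2 (0.54, limma adjusted p = 0.146) or array 3 (0.65, limma adjusted p = 0.0904).

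In heme synthesis, which supplies the cytochromes P450 Erg11 and Erg5, 2 of 5 tested genes fell and 3 did not pass. HEM13, the oxygen-dependent coproporphyrinogen oxidase, had log2 ratios of -1.20, -1.31 and -1.39 and fell by 1.30 ± 0.09 (limma adjusted p = 0.000448). HEM12, uroporphyrinogen decarboxylase, fell by 0.96 ± 0.36 (limma adjusted p = 0.00434). Of 9 tested genes of other regulation and of the turnover of sterol enzymes in the endoplasmic reticulum and inner nuclear membrane, 4 rose and 5 did not pass (median 0.54). UBC7, the ubiquitin-conjugating enzyme that acts in the degradation of Hmg2 and Erg1, rose by 1.68 ± 0.10 (limma adjusted p = 0.000134), and ASI3, of the inner nuclear membrane ubiquitin ligase that acts on Erg11, rose by 1.47 ± 0.16 (limma adjusted p = 0.000293).

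Of 7 tested genes of other sterol transfer and export 3 fell and 1 rose (median -0.19). NPC2, the vacuolar sterol carrier, had log2 ratios of 2.34, 1.97 and 2.59 and rose by 2.30 ± 0.31 (limma adjusted p = 5.87e-05). PRY3 and OSH7, a wall-bound sterol-binding protein and an oxysterol-binding protein homologue, had mean log2 ratios of -1.67 ± 0.13 and -1.12 ± 0.21 and both fell (limma adjusted p = 0.000148 and 0.00120). In the list of lipid droplet and neutral lipid genes 6 of 10 rose and 1 fell (median 0.60). PET10, the perilipin of yeast lipid droplets, had 3.10, 2.87 and 3.13 and rose by 3.04 ± 0.14 (limma adjusted p = 1.16e-05), and EHT1, an acyltransferase that forms ethyl esters, rose by 1.15 ± 0.28 (adjusted p = 0.00132). FAA1, an acyl-CoA synthetase, fell by 1.04 ± 0.84, with -1.98 on array 1 and a mean of -0.56 without it (limma adjusted p = 0.0742).

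Wall mannoproteins of the DAN and TIR class, which Upc2 activates in cells without oxygen, had 3 tested genes. DAN2, annotated on the array as PAU23, rose by 1.26 ± 0.17 and TIR2 rose by 0.95 ± 0.35 (limma adjusted p = 0.000615 and 0.00437), while TIR1 had a mean of -0.06 ± 0.09. DAN2 and TIR2 belong to gene families with closely related copies, and cross-hybridisation among them was not tested. Of 14 tested sphingolipid genes 9 fell and 2 rose (median -0.85). ELO2, a fatty acid elongase that makes the very long chains of ceramide, fell by 3.56 ± 0.22, and LAC1, a ceramide synthase subunit, fell by 2.46 ± 0.19 (limma adjusted p = 1.02e-05 and 3.15e-05). LIP1, the regulatory subunit of the same ceramide synthase, rose by 1.98 ± 0.41 and CSG2, of inositolphosphoceramide mannosylation, rose by 0.96 ± 0.05 (limma adjusted p = 0.000185 and 0.00174).

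**Figure D4:**
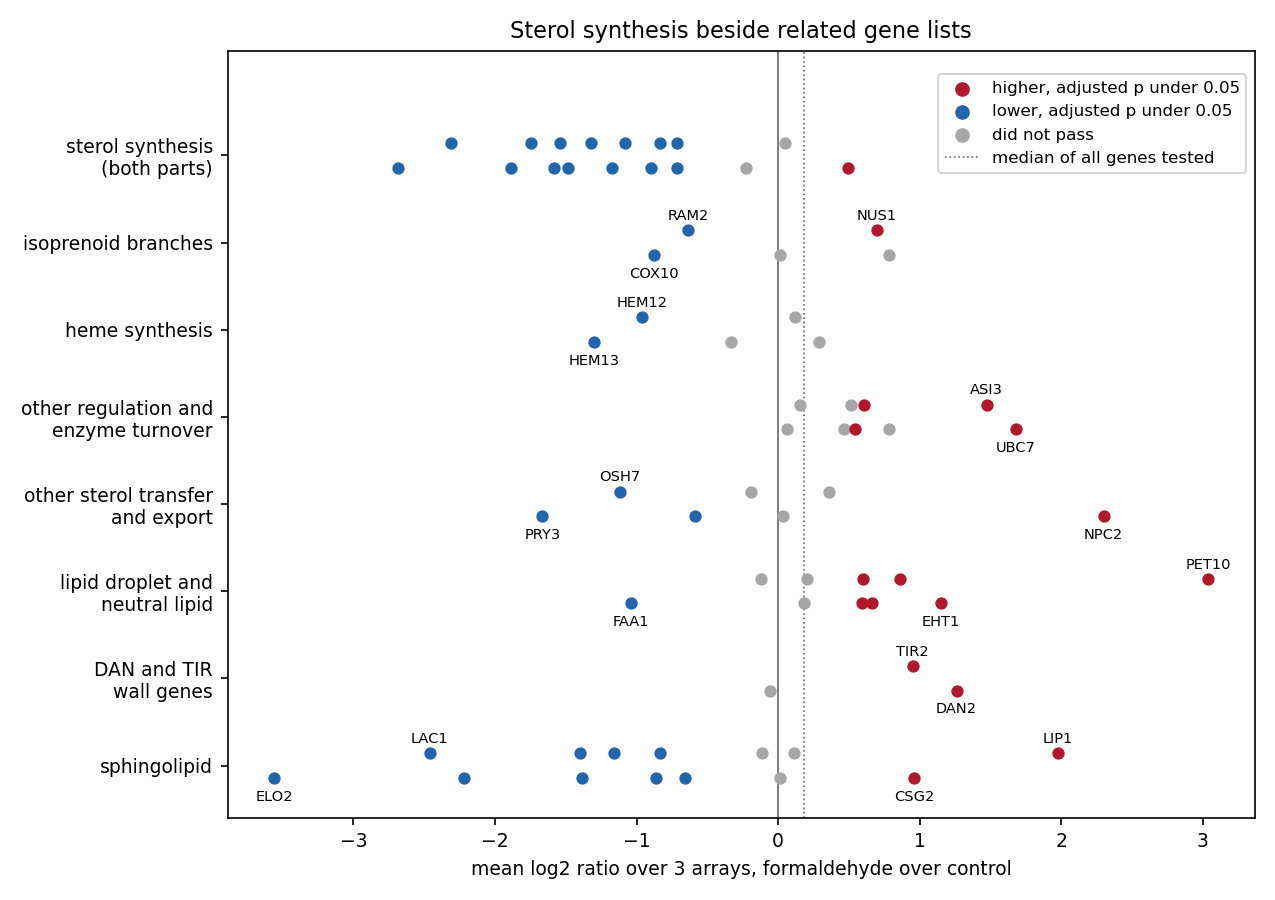
Mean log2 ratio of formaldehyde over control (x axis) for genes with a value on 3 arrays, by list (rows); red points were called higher, blue points lower and grey points did not pass, and the dotted line is the median of all genes tested, 0.18. Sterol synthesis and the sphingolipid list are mostly left of 0, while the lipid droplet list is mostly right of it with PET10 at 3.04.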

How the data were processed

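Formaldehyde-treated and control yeast were compared on 3 two-colour arrays, read in 6 scans. Per the labels' descriptions, the authors LOWESS-normalised each scan over unflagged spots. The deposited values are log2 ratios, one for each probe in each scan. Base 2 was inferred from the lowest value, -6.64. Spot intensities were not used here, so signal over background is unknown and the number of arrays limits the precision. The image software was not stated in the labels. Arrays 1, 2 and 3 had values for 2498, 3329 and 4292 genes.

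Of 6912 probes 5446 had 1 gene symbol, 1466 had none and 0 had several. Probes of a gene were averaged (each sterol gene had 1), then the scans of an array. Using limma 3.58.1 (R 4.3.3), the mean of the arrays was set against 0 with eBayes (2 residual and 4.85 prior degrees of freedom) and p-values were adjusted over all genes tested. The code was tested on simulated ratios. The members and the related lists were chosen with earlier results of these data known. All sterol genes are named, and from each related list up to 2 genes called in each direction with the largest change. TIR1 and LAG1 were named after their values were seen. Alternatives were scan power, the array as a random block, centring, quantile normalisation, fewer arrays needed, robust eBayes, a single probe, a stricter p, a test against a minimum fold, and each array left out. Centring on the genes tested was chosen after seeing the data. Promoter and protein sequences were not analysed here.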

Additional observations from a re-analysis of the deposited data

How the results depend on the processing

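Apart from the minimum fold test, 14 of the 17 sterol genes called kept call and direction in every alternative that gave a value. ERG9, ERG12 and ERG25 did not. The alternatives numbered 14. The single probe alternative could not alter the ratio of a sterol gene, as each had 1 probe. Robust eBayes left the counts of calls unchanged. With the test against a minimum fold of 2, 5 sterol genes were called lower and 1 higher, and 192 genes lower and 218 higher among all. Low power scans alone tested 10 sterol genes, with 9 lower and 1 higher (178 and 225 of 560 genes). The squalene-to-ergosterol median was then -0.93, over 6 genes. High power scans alone gave 1 sterol gene higher and a squalene-to-ergosterol median of -1.47 over 10 genes, a larger set than at low power. When 2 arrays sufficed, 816 genes were lower. Sterol genes called higher numbered 1 with scans centred on their median, at adjusted p under 0.01, and with arrays centred on the genes tested, where the squalene-to-ergosterol median was -1.52. Leaving out 1 array gave 1 to 2 sterol genes higher, ERG9 not among them, and a squalene-to-ergosterol median between -1.36 and -1.17. Those medians covered 12, 11 and 10 genes without arrays 1, 2 and 3, so they are not of the same genes. Centring on the genes tested took 0.05, 0.21 and 0.31 off arrays 1, 2 and 3, and gave 654 genes higher and 649 lower, against 794 higher and 539 lower without it. ERG8 and TGL1, which did not pass, changed sign: ERG8 was -0.0035 with high power scans, -0.023 with centred scans, -0.14 with arrays centred on the genes tested, and between -0.052 and 0.21 without 1 array, and TGL1 was -0.053 with arrays centred on the genes tested. Each array compares both cultures directly, so the pairing is built into every ratio and no further block could be fitted. Signal over background is unknown, so no limit from it can be given.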

Other observations

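Which steps had the lowest ratios was looked at after the values were known, so the following is a description without a test. Oxygen is consumed by 5 enzymes of the pathway: Erg1, Erg11, Erg25, Erg3 and Erg5. On array 3, where all 29 sterol genes with any value were read, ERG1 (-2.93), ERG3 (-2.69), ERG11 (-2.64) and ERG5 (-2.37) held the 4 lowest places, and ERG25 (-1.12) stood at place 20. ERG7 (-2.23), whose enzyme uses no oxygen, was at place 5. ERG3 had no value on the other arrays, and ERG5 had none on array 1. There ERG1 (-2.46) and ERG11 (-2.13) were the lowest. On array 2 ERG5 (-2.83) and ERG1 (-2.67) were the lowest, but ERG6 (-2.21), whose enzyme uses no oxygen, lay below ERG11 (-2.16).

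ARE2 exceeded YEH2 by 4.35 and 4.54 on arrays 2 and 3, the only arrays that read YEH2. These were the highest and the lowest of the sterol ester genes with a value there. The other ester-forming and ester-cleaving genes lay closer together on those arrays, ARE1 at 0.74 and 0.91 and TGL1 at 0.30 and 0.16. LAG1, the partner of LAC1 in ceramide synthase and named after its values were seen, had log2 ratios of -2.28, -2.01 and -2.37, whereas their regulatory subunit gene LIP1 had 2.36, 2.01 and 1.55.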
